A study of Homo sapiens with 9 samples.

Results

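Transcript levels of 9 genes for ribonucleotide reductase and deoxynucleotide (dNTP) supply were examined in HEK293T cells after degradation of PRPS1 or PRPSAP1 was induced. The set comprised RRM1, RRM2, RRM2B, TYMS, DUT, DCTD, DTYMK, TK1 and SAMHD1, chosen by gene name from the 58735 genes in the count files, and each name matched 1 gene. HEK293T is a cell line of human embryonic kidney origin in which the SV40 large T antigen is expressed. All cells carried the labelled genotype HEK293T-PRPS1-HA-dTAG-PRPSAP1-V5-BromoTag, so the DMSO controls had both tagged proteins too. The first group was given dTAG47, used to deplete PRPS1. The second was given AGB1, used to deplete PRPSAP1. Both compounds were used at 500 nM for 24 h, and the third group received DMSO. Each group held 3 poly(A)-selected RNA-seq libraries. Untagged cells given the compounds were not analysed here, so an effect of a compound on its own and an effect of losing its target cannot be told apart. Neither the clonality of the line nor the use of separate cultures for the libraries is given in the labels, so the spread behind each p-value is that among these libraries and may be technical.

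PRPS1 makes phosphoribosyl pyrophosphate, the activated ribose from which purine, pyrimidine and pyridine nucleotides are built, and PRPSAP1 is a protein that associates with the synthetase. Ribonucleotide reductase turns ribonucleoside diphosphates into the deoxy forms needed for DNA. Its large subunit RRM1 carries the catalytic and allosteric sites and pairs with a small subunit, either RRM2, which is made in S phase and degraded at mitosis, or RRM2B, a target of p53 that also serves resting cells and mitochondrial DNA. Thymidine nucleotides need further steps through TYMS, DUT, DCTD, TK1 and DTYMK, and SAMHD1 breaks dNTPs down.

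Libraries held between 27964128 and 44803380 counts, and 18319 genes were tested with edgeR's quasi-likelihood test. Levels are given as CPM, counts scaled to a common library size with TMM factors. Each of the 9 genes passed the count filter, with between 986 counts (TYMS, in the library where it was lowest) and 14729 counts (RRM1, in the library where it was highest). The biological coefficient of variation, the spread between libraries beyond counting error, was 4.86% to 8.35% for the 9 genes, against a common value of 11.0%. The labels give the cell type as epithelial. KRT8 and KRT18, keratins of simple epithelia, averaged 31.4 and 52.0 CPM over the 9 libraries, and CDH1 (E-cadherin) averaged 7.21 CPM. EPCAM averaged 2.13 CPM, and KRT19 was at 0 in 7 of the 9 libraries and at most 0.0971 CPM in the others, while VIM averaged 354 CPM and NEFM 193 CPM. Of the 14 markers of other cell types, PTPRC and HBB each had a count in only 1 library. Their summed level was 30.9 to 38.3 CPM with dTAG47, 29.6 to 32.7 CPM with AGB1 and 34.4 to 37.7 CPM in DMSO, mostly from COL1A1 at 27.0 CPM. The compounds act on the proteins, so the transcripts of the tagged genes do not check the depletion.

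The dNTP supply genes kept to narrow ranges, with coefficients of variation of 2.62% (RRM1) to 11.6% (RRM2B) over the 9 libraries. After dTAG47, 0 of 9 passed the 5% threshold in edgeR (Benjamini-Hochberg adjustment over all tested genes), where 0.0600% of all tested genes did. TYMS and SAMHD1 had an unadjusted p under 0.05, a level that 7.28% of all tested genes reached. DESeq2 and limma-voom also called 0 of the 9, with 3 and 2 genes under an unadjusted 0.05. The share of all genes under that level is given for edgeR alone. The median log2 fold change of the 9 was 0.01, beside −0.000974 over all genes tested, and 5 of the 9 values were above 0. At its 95% interval, the fit placed every one of the 9 genes between a fold of 0.788 (the lower bound for RRM2B) and a fold of 1.29 (the upper bound for TYMS) with dTAG47 relative to DMSO.

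With AGB1, 0 of 9 passed in edgeR, against a background of 0.104%. TYMS and SAMHD1 again had an unadjusted p under 0.05, where 7.76% of all tested genes did. DESeq2 called 0 with 3 genes under an unadjusted 0.05, and limma-voom called 0 with 2, with the background share again given for edgeR alone. The median of the 9 was 0.06, beside −0.000924 over all genes tested, and 6 of the 9 values were above 0. The 95% intervals reached a fold of 0.836 for RRM2B at the lower end and 1.32 for TYMS at the upper end. Both comparisons use the same 3 DMSO libraries, so their values are not independent of each other.

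Set directly against each other, dTAG47 and AGB1 gave 0 of 9 genes past the threshold in edgeR, where 0% of all tested genes passed. In this contrast 0 of the 9 had an unadjusted p under 0.05 in edgeR, DESeq2 or limma-voom, against a background of 4.02% in edgeR. The intervals of the difference lay between folds of 0.818 (RRM2B) and 1.12 (DCTD). When the 6 degrader-treated libraries were set against DMSO in a single contrast, 0 of 9 passed (background 0.186%). TYMS, DUT and SAMHD1 then had an unadjusted p under 0.05 in each of edgeR, DESeq2 and limma-voom, a level reached by 8.72% of all tested genes in edgeR. The smallest adjusted p among the 9 in this contrast was 0.427 in edgeR, 0.240 in DESeq2 and 0.409 in limma-voom.

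**Figure D1:**
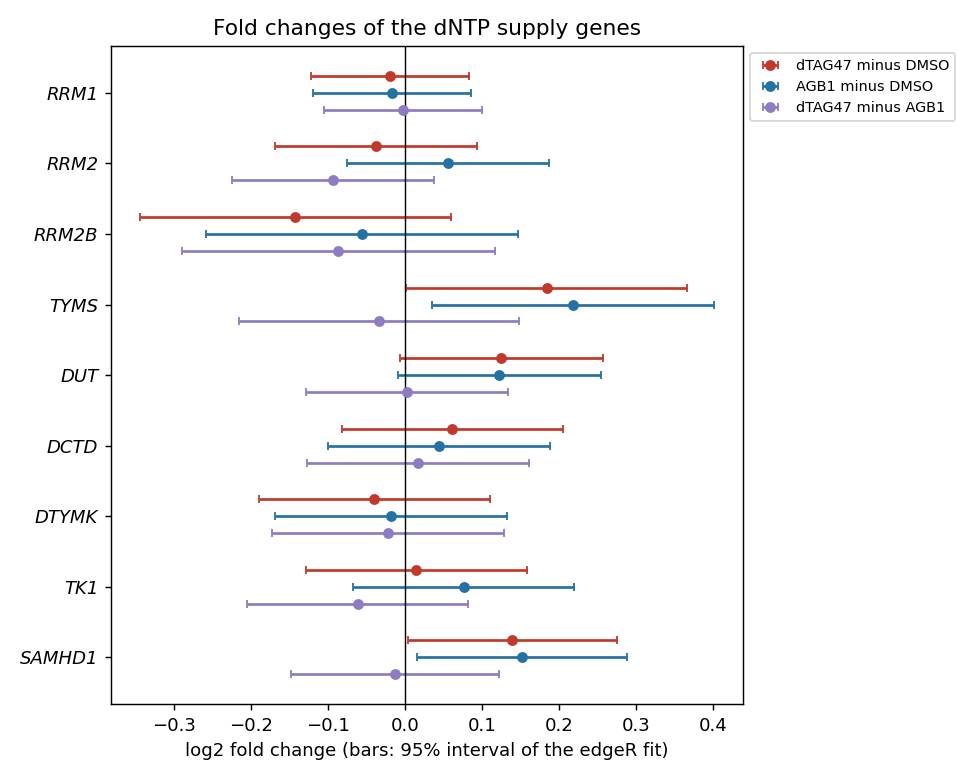
Log2 fold changes of the 9 genes from edgeR, with 95% intervals as bars, for each compound minus DMSO and for dTAG47 minus AGB1. TYMS has the largest estimates against DMSO, at 0.18 with dTAG47 and 0.22 with AGB1, and RRM2B has the widest intervals.

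Levels differed more between the genes than between the treatments. Gene length counts every annotated exonic base of a gene, 11261 for SAMHD1, and can exceed the length of any single transcript. Per kilobase of this gene length, the order of the mean levels was RRM1, TK1, DTYMK, RRM2, DUT, DCTD, TYMS, RRM2B and SAMHD1 in all 3 groups. That order, with SAMHD1 last, depends on this choice of length, and levels per transcript length were not computed. RRM1 stood at 75.8 ± 2.58 CPM per kilobase with dTAG47, 75.9 ± 2.33 with AGB1 and 76.8 ± 1.69 in DMSO (SD, n = 3 each). At the other end, SAMHD1 stood at 9.68 ± 0.276 CPM per kilobase with dTAG47, 9.76 ± 0.451 with AGB1 and 8.79 ± 0.674 in DMSO. Neighbours in the order whose libraries overlapped were RRM1 and TK1, RRM2 and DUT, and RRM2B and SAMHD1 with dTAG47, and RRM2B and SAMHD1 with AGB1. In DMSO no neighbours overlapped. The summed level of the 9 genes was 1074, 1090 and 1078 CPM in dTAG47 libraries 1 to 3, 1116, 1072 and 1121 CPM in AGB1 libraries 1 to 3, and 1066, 1082 and 1065 CPM in DMSO libraries 1 to 3. These ranges overlap for dTAG47 and AGB1 and for each compound and DMSO.

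**Figure D2:**
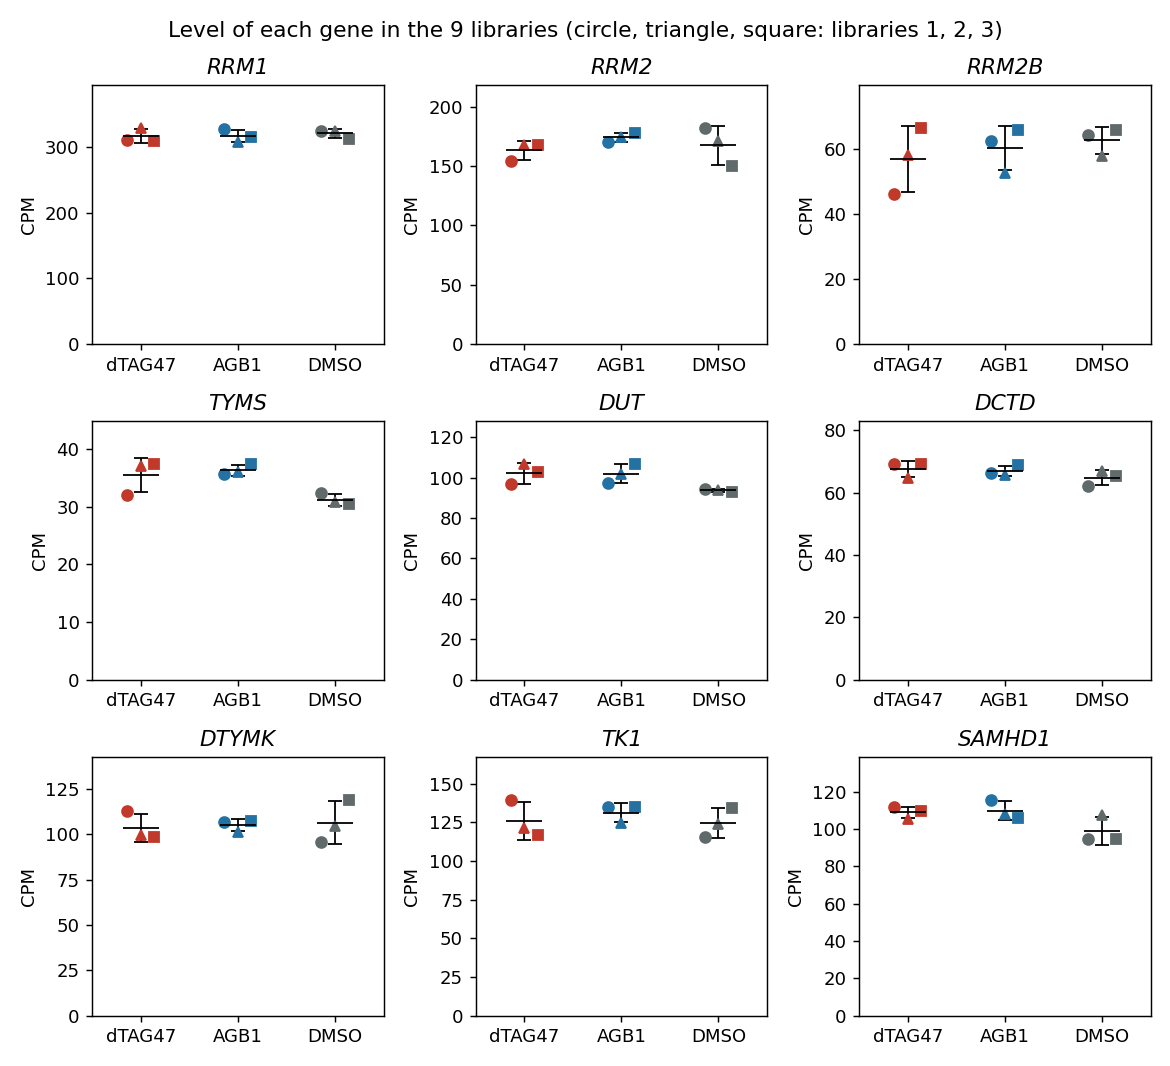
CPM of each gene in the 9 libraries, with dTAG47, AGB1 and DMSO from left to right; circles, triangles and squares are libraries 1, 2 and 3, and the line and bar are the mean and SD (n = 3). For DUT, every treated library lies above the 3 DMSO libraries, which sit between 93.0 and 94.3 CPM.

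Among the reductase subunits, RRM1 (ENSG00000167325, GRCh38 chr11:4094707-4138876, plus strand), the large subunit, varied least of the 9 genes. It had 312, 329 and 309 CPM in dTAG47 libraries 1 to 3, 327, 308 and 316 CPM in AGB1 libraries and 325, 325 and 313 CPM in DMSO libraries. All 3 groups overlapped. The antisense gene RRM1-AS1, which covers 1.51% of the exonic bases of RRM1, averaged 0.0207 CPM. The log2 fold change of RRM1 was −0.02 ± 0.05 (SE) for both dTAG47 and AGB1 against DMSO, with edgeR adjusted p-values of 0.964 and 0.968. The interval for dTAG47 ran from −0.12 to 0.08 on the log2 scale.

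RRM2 (ENSG00000171848, chr2:10120698-10131419, plus strand) is the small subunit of proliferating cells. It had 154, 168 and 168 CPM with dTAG47, 170.1, 175 and 178 CPM with AGB1 and 182, 171 and 149.8 CPM in DMSO. The DMSO libraries spanned the values of both treated groups, while every dTAG47 library lay below every AGB1 library. Non-overlap in that direction held for 5.10% of all tested genes. On the log2 scale dTAG47 minus AGB1 was −0.09 ± 0.06, with an edgeR adjusted p of 0.999. Against DMSO it was −0.04 with dTAG47 and 0.06 with AGB1, and neither sign held when each library was left out in turn. The dTAG47 value was 0.03 without DMSO 1 and 0.00129 without dTAG47 1, and the AGB1 value was −0.02 without DMSO 3. By sequence, 27.9% of the 75-base words of the longest RRM2 transcript also occur in AC007240.1, a gene on the same strand that overlaps 20.2% of the exonic bases of RRM2 and averaged 0.548 CPM. The processed RRM2 copies RRM2P2 and RRM2P3 held 11 and 29 counts over the 9 libraries, and RRM2P4 held 0.

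RRM2B (ENSG00000048392, chr8:102204502-102239118, minus strand), the p53-inducible small subunit, was the most variable of the 9. It had 46.1, 58.0 and 66.3 CPM with dTAG47, 62.3, 52.5 and 65.8 CPM with AGB1 and 64.2, 57.8 and 65.7 CPM in DMSO. All groups overlapped, and dTAG47 1 was the lowest library. The log2 fold change with dTAG47 was −0.14 ± 0.10 (edgeR adjusted p = 0.808), and it rested on that library: it was −0.01 without dTAG47 1 and −0.27 without dTAG47 3. With AGB1 it was −0.06 ± 0.10 (adjusted p = 0.932), and 0.03 without AGB1 2. The RRM2B transcript has 36.4% GC, lower than in most tested genes (percentile 3.94). In dTAG47 1 the deviation of genes from their mean rose with GC content (Spearman's rho 0.623). That rho was taken over genes of at least 5 CPM on average, and so without independent replicates. With the GC trend of each library removed, the RRM2B value was −0.09 with dTAG47 and −0.00421 with AGB1.

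The balance of the subunits was described by ratios of per-length levels, without a test. On the log2 scale, RRM2 to RRM1 averaged −1.31 ± 0.07 with dTAG47, −1.21 ± 0.07 with AGB1 and −1.29 ± 0.11 in DMSO (SD, n = 3 each). RRM2B to RRM2 averaged −1.60 ± 0.20 with dTAG47, −1.60 ± 0.17 with AGB1 and −1.48 ± 0.20 in DMSO. In linear terms RRM2 transcripts were thus 0.405, 0.431 and 0.409 of RRM1 per length with dTAG47, with AGB1 and in DMSO. The size of these ratios depends on the gene lengths used.

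The thymidylate branch starts from deoxyuridine nucleotides. DUT hydrolyses dUTP to dUMP, which keeps uracil out of DNA and supplies the substrate of TYMS. DCTD makes the same dUMP from dCMP. TYMS methylates dUMP to dTMP with a folate cofactor. TYMS and DUT are classical targets of E2F, the factor that drives S phase transcription, and CCAAT boxes are bound by NF-Y. RefSeq promoter windows (GRCh38.p14, 250 bases before to 50 after each start) were searched on both strands for TTTCCCGC, TTTCGCGC, TTTGCCGC and TTTGGCGC, words of the E2F type, and for CCAAT. The stretches below are shown for the pairs with the highest correlations across libraries, TYMS with DUT and DTYMK with TK1. Whether the words bear on these correlations was not tested, and CCAAT was also found for RRM1, RRM2 and SAMHD1. Each is read 5′ to 3′ on the strand of the gene, and capitals mark a word or its reverse complement.
TYMS: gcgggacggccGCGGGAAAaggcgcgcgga
DUT: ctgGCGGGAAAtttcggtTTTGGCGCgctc
DTYMK: tgttgacgccggCCAATgggagctccggaa
TK1: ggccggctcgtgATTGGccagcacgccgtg
They lie at chr18:657603-657632 (plus strand) for TYMS, chr15:48332152-48332181 (plus) for DUT, chr2:241686822-241686851 (minus) for DTYMK and chr17:78187081-78187110 (minus) for TK1. The DUT stretch holds words of both orientations, 42 and 27 bases before 1 of its 4 listed starts, and the TYMS word lies 39 bases before the start. In GENCODE 29, whose gene starts differ, each stretch overlaps an exon and an annotated untranslated region of at least 1 transcript of its gene.

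Of the 9 genes, 8 matched 14 windows, and RRM2B had no entry. An E2F-type word was found in TYMS and DUT and in no window of the other 6 matched genes, which is 2 of 8 genes beside 3.99% of the 27305 genes with a window (3.31% of all 35116 windows). Among S phase genes, 14 of 18 matched genes hold one. CCAAT was found for 5 of the 8, RRM1, RRM2, DTYMK, TK1 and SAMHD1, beside 39.7% of all genes with a window (34.6% of all windows), and DCTD held neither. Genes with several windows have more chances of a match. No word overlapped another in these windows. A word is a match of letters and not a shown binding site.

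TYMS (ENSG00000176890, chr18:657604-673578, plus strand) had 32.0, 37.1 and 37.3 CPM in dTAG47 libraries 1 to 3, 35.6, 35.9 and 37.4 CPM in AGB1 libraries and 32.4, 30.7 and 30.5 CPM in DMSO libraries. All AGB1 libraries lay above all DMSO libraries, and dTAG47 1 lay within the DMSO range. The log2 fold change was 0.18 ± 0.09 with dTAG47 (unadjusted p = 0.0477, edgeR adjusted p = 0.681) and 0.22 ± 0.09 with AGB1 (unadjusted p = 0.0209, adjusted p = 0.523). Across the single libraries left out, the dTAG47 value ranged from 0.15 to 0.25 and the AGB1 value from 0.20 to 0.25.

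The TYMS values have a limit in the counting. ENOSF1, on the opposite strand, covers 39.1% of the exonic bases of TYMS and holds 47.3% of its 75-base words, and whether reads were counted by strand is not given in the sources used here. ENOSF1 had 27.8, 29.2 and 25.4 CPM with dTAG47, 23.7, 26.9 and 32.0 CPM with AGB1 and 27.4, 33.8 and 25.9 CPM in DMSO. The bidirectional-promoter transcript TYMSOS averaged 1.08 CPM, and the copies TYMSP1 and TYMSP2 had 0 counts. The ENOSF1 groups overlapped, and its log2 fold change was −0.08 ± 0.11 with each compound (edgeR adjusted p = 0.924 with dTAG47 and 0.911 with AGB1). With the counts of TYMS and ENOSF1 summed, a setting chosen after seeing the data, the value was 0.06 with dTAG47 (unadjusted p = 0.425) and 0.08 with AGB1 (unadjusted p = 0.297).

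DUT (ENSG00000128951, chr15:48331011-48343373, plus strand) was the only one of the 9 whose 6 treated libraries all lay above the 3 DMSO libraries. It had 96.7, 107 and 103 CPM with dTAG47, 97.4, 102 and 107 CPM with AGB1 and 94.3, 93.7 and 93.0 CPM in DMSO. The DMSO libraries were closer to each other than the treated ones, with an SD of 0.646 CPM against 5.07 with dTAG47 and 4.67 with AGB1. A full separation upwards was seen in 5.80% of all tested genes for dTAG47 against DMSO, in 6.56% for AGB1 against DMSO and in 2.11% for all 6 treated libraries against DMSO. For dTAG47 it applied to 1 of the 9 genes (DUT) and for AGB1 to 2 (TYMS and DUT). The log2 fold change was 0.13 ± 0.06 with dTAG47 (edgeR adjusted p = 0.697) and 0.12 ± 0.06 with AGB1 (adjusted p = 0.671). The antisense gene AC023355.1 shares 14.4% of the 75-base words of DUT and averaged 1.15 CPM. Of 8 processed DUT copies, DUTP1 held the most, at 0.15% of the DUT counts.

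DCTD (ENSG00000129187, chr4:182890060-182917936, minus strand) had 69.1, 64.8 and 69.2 CPM with dTAG47, 66.2, 65.6 and 68.7 CPM with AGB1 and 62.3, 66.9 and 65.3 CPM in DMSO. All groups overlapped. On the log2 scale the fold change was 0.06 ± 0.07 with dTAG47 and 0.04 ± 0.07 with AGB1, with upper bounds of 0.20 and 0.19 (edgeR adjusted p = 0.897 and 0.920).

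Thymidine salvage and the next phosphorylation depend on TK1, the cytosolic thymidine kinase of S phase, and DTYMK, the thymidylate kinase that makes dTDP from dTMP of either origin. TK1 (ENSG00000167900, chr17:78174075-78187233, minus strand) had 139.5, 121 and 117 CPM with dTAG47, 135, 124 and 135 CPM with AGB1 and 115, 124 and 134 CPM in DMSO. DTYMK (ENSG00000168393, chr2:241675742-241686991, minus strand) had 113, 99.6 and 98.5 CPM with dTAG47, 107, 101 and 107 CPM with AGB1 and 95.7, 105 and 119 CPM in DMSO. Both genes overlapped in all groups. DTYMK was highest in DMSO 3 and dTAG47 1, and TK1 was highest in dTAG47 1, with AGB1 1, AGB1 3 and DMSO 3 next and close to each other. Against DMSO, TK1 gave 0.01 ± 0.07 on the log2 scale for dTAG47 and 0.08 ± 0.07 for AGB1 (edgeR adjusted p = 0.983 and 0.848). DTYMK gave −0.04 ± 0.07 for dTAG47 and −0.02 ± 0.07 for AGB1 (adjusted p = 0.949 and 0.980). The sign of the dTAG47 value of TK1 turned when either of 2 libraries was left out, at −0.07 without dTAG47 1 and −0.04 without DMSO 1. Without DMSO 3 the DTYMK value turned to 0.05 with dTAG47 and 0.07 with AGB1, and without AGB1 2 its AGB1 value was 0.01.

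Synthesis and salvage of thymidylate were also set against each other without a test. The log2 ratio of TYMS to TK1 per length averaged −2.23 ± 0.26 with dTAG47, −2.26 ± 0.07 with AGB1 and −2.40 ± 0.16 in DMSO (SD, n = 3 each). DUT to TYMS averaged 0.96 ± 0.07 with dTAG47, 0.92 ± 0.03 with AGB1 and 1.01 ± 0.04 in DMSO. The size of these ratios too depends on the gene lengths used.

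SAMHD1 (ENSG00000101347, chr20:36889773-36951901, minus strand) cleaves dNTPs to the deoxynucleoside and triphosphate. It had 112, 106 and 109.8 CPM with dTAG47, 116, 108 and 106 CPM with AGB1 and 94.7, 108 and 94.5 CPM in DMSO. DMSO 2 lay among the treated libraries, and the other two DMSO libraries lay below all treated ones. The log2 fold change was 0.14 ± 0.07 with dTAG47 (unadjusted p = 0.0445, edgeR adjusted p = 0.679) and 0.15 ± 0.07 with AGB1 (unadjusted p = 0.0295, adjusted p = 0.562). Without DMSO 2 these values were 0.20 with dTAG47 and 0.22 with AGB1. TLDC2, on the opposite strand, covers 10.3% of its exonic bases and averaged 0.0479 CPM. In bulk RNA, fewer cells that carry a transcript and less of it per cell cannot be told apart, for SAMHD1 as for the S phase genes of the set.

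The 36 pairs among the 9 genes were compared by the correlation of log2 CPM over the 9 libraries. TYMS and DUT had the highest Pearson's r, 0.92 (Spearman's rho 0.933). The two-sided exact permutation p was 0.00165 for r, or 0.0315 adjusted over the 36 pairs, and the adjusted p for rho was 0.0270. These permutation p-values, here and below, treat the 9 libraries as exchangeable across the 3 groups. A shift of both genes between groups would break that. No p was computed for an r with the group means subtracted. Without the 2 libraries farthest from the TYMS median, DMSO 2 and DMSO 3, r was 0.871. With each group's mean subtracted, r was 0.809, so part of the relation lay within groups. Among 10837 genes of at least 5 CPM, 4 had an r with DUT at least as high as TYMS.

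DTYMK and TK1 had an r of 0.877 and a rho of 0.867, with exact permutation p-values adjusted over the 36 pairs of 0.0315 for r and 0.0812 for rho. Without DMSO 1 and DMSO 3, r was 0.952, and with the group means subtracted it was 0.950. Both transcripts are rich in GC, at 59.7% for DTYMK and 62.8% for TK1 (percentiles 84.7 and 92.6 among tested genes). Of their high libraries, dTAG47 1 and DMSO 3 had deviations that rose with GC content (rho 0.623 and 0.271). DMSO 1, low for both, had a rho of −0.378. Each rho with GC content was taken over genes of at least 5 CPM on average. AGB1 1 and AGB1 3, in which TK1 was as high as in DMSO 3, had a rho of −0.00625 and 0.0497. The part of GC content in this relation was not tested. With the GC trend removed, the dTAG47 values were −0.08 for DTYMK and −0.03 for TK1. TYMS (49.8% GC) and DUT (44.2% GC) stood at 0.17 and 0.13 with the trend removed, close to the values above. The next pair by p, RRM2 and DTYMK, ran in opposite directions, with an r of −0.787, a rho of −0.483 and exact permutation p-values adjusted over the 36 pairs of 0.146 for r and 0.932 for rho. That r rested on dTAG47 1 and DMSO 3, being −0.129 without them. With the group means subtracted over all 9 libraries, it was −0.937. After these came DCTD and SAMHD1, with an r of 0.652 and a rho of 0.667. Their adjusted exact permutation p-values were 0.550 for r and 0.707 for rho, so 2 of the 36 pairs passed 0.05 for r. The share of such pairs among all genes was not computed. High r was not particular to these pairs: the best match outside the set had an r from 0.928 (for SAMHD1) to 0.977 (for DUT).

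**Figure D3:**
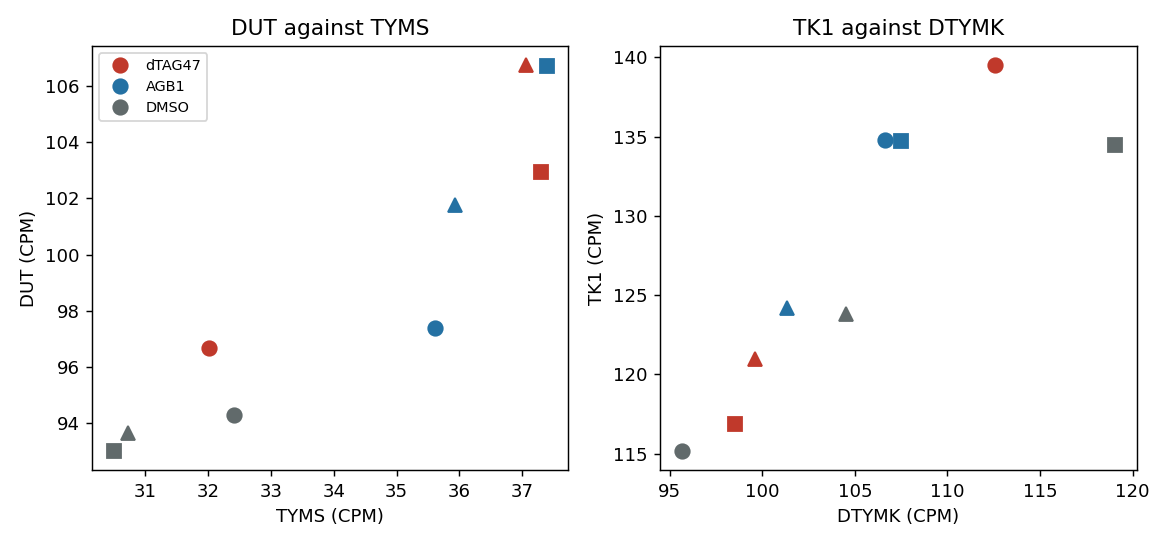
DUT against TYMS (left) and TK1 against DTYMK (right), in CPM; each point is a library, coloured by group, with circles, triangles and squares for libraries 1, 2 and 3. TYMS and DUT are lowest together in DMSO 2 and DMSO 3 (r = 0.92), and DTYMK and TK1 are lowest together in DMSO 1 and dTAG47 3 (r = 0.877).

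**Figure D4:**
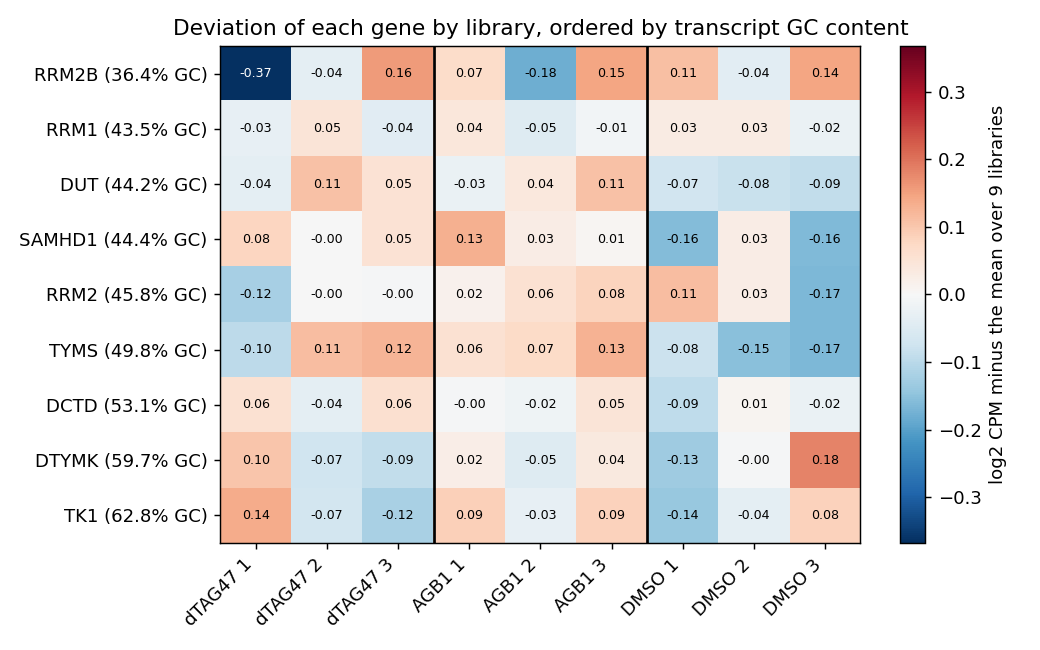
Log2 CPM of each gene in each library minus its mean over the 9 libraries, with genes ordered from low to high transcript GC content; the vertical lines part dTAG47, AGB1 and DMSO. In dTAG47 1 the values run from −0.37 for RRM2B, at 36.4% GC, to 0.14 for TK1, at 62.8% GC.

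Genes outside the set with the most similar pattern were ranked by r over the 9 libraries among 10830 protein-coding genes of at least 5 CPM. For RRM1 these were BUB1B (r = 0.93), TRIM71 (0.921) and MSH6 (0.916). For RRM2 they were PHF3 (0.961), BDP1 (0.959) and CCNT1 (0.943), and for RRM2B they were UFM1 (0.937), IFT81 (0.917) and BRIX1 (0.906). The nearest gene was STT3A for TYMS (0.96), ELP3 for DUT (0.977), SORBS3 for DCTD (0.941), WDR74 for DTYMK (0.972), C20orf27 for TK1 (0.956) and FAM241A for SAMHD1 (0.928). Each is the highest of 10830 values over 9 shared libraries and describes these libraries. The nearest genes of RRM2B have low GC, at 34.9% to 39.8%, and that of TK1 has 65.3%.

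The surrounding pathway was read from 9 lists with 120 genes, of which 117 were tested. In edgeR 0 of the 117 passed the threshold in any of the 4 contrasts. With dTAG47, 8 had an unadjusted p under 0.05 in edgeR, beside 9 in DESeq2, which gave p-values for all 120, and 8 in limma-voom. With AGB1, 8 did in edgeR, beside 7 in each of the other tools. In edgeR that is 6.84% of the 117 with either compound, near the edgeR shares of all tested genes given above.

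The S phase genes (MCM helicase subunits, GINS, PCNA and others; 21 of 22 tested) had a median log2 fold change of 0.01 with dTAG47 and 0.000581 with AGB1, and all 21 lay between −0.17 and 0.11 with dTAG47. CLSPN, the mediator of checkpoint signalling at forks, was at the low end. It had 87.8, 90.9 and 90.6 CPM with dTAG47 and 111, 99.6 and 93.0 CPM in DMSO (log2 fold change −0.17 ± 0.07, edgeR adjusted p = 0.614). The groups did not overlap, as held downwards for 5.82% of all tested genes. MCM2 had 0.09 ± 0.05 with dTAG47 and 0.000581 with AGB1.

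The 26 regulators of the reductase and SAMHD1, among them E2F factors, pocket proteins, checkpoint kinases and p53 with its targets, had medians of −0.00473 with dTAG47 and 0.01 with AGB1. MDM2, the p53 ligase and itself a p53 target, had −0.14 ± 0.07 with dTAG47 and −0.18 ± 0.07 with AGB1 (edgeR adjusted p = 0.692 and 0.500). CDKN1A, a cyclin-dependent kinase inhibitor and p53 target, had 0.22 ± 0.09 with dTAG47 and 0.15 ± 0.09 with AGB1 (adjusted p = 0.615 and 0.711). RRM2B, another p53 target, had −0.14 ± 0.10 with dTAG47 and −0.06 ± 0.10 with AGB1, with the limits given above.

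The folate cycle that feeds TYMS had medians of 0.02 with dTAG47 and 0.09 with AGB1 over 11 genes. MTHFD2, a mitochondrial folate dehydrogenase, had 0.06 ± 0.05 with dTAG47 and 0.11 ± 0.05 with AGB1. SHMT2, the mitochondrial serine hydroxymethyltransferase, had 0.08 ± 0.05 with each compound. MTHFS, singled out after its values were seen, held the highest value of that list with dTAG47, 0.52 with an unadjusted edgeR p of 0.279. Among the 11 genes for the electron donors and the iron cofactor of the reductase, medians were −0.01 with dTAG47 and 0.03 with AGB1. TXNRD1, thioredoxin reductase, had 0.04 ± 0.05 with dTAG47 and 0.14 ± 0.05 with AGB1 (edgeR adjusted p = 0.908 and 0.467). Its substrate TXN had −0.09 ± 0.05 with dTAG47 and 0.03 ± 0.05 with AGB1.

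In deoxynucleoside salvage (5 genes; medians 0.05 with dTAG47 and 0.04 with AGB1), the mitochondrial thymidine kinase TK2 had 17.1, 16.3 and 16.3 CPM with dTAG47, 19.4, 18.1 and 17.0 CPM with AGB1 and 13.2, 12.9 and 16.3 CPM in DMSO. The AGB1 libraries lay above all DMSO libraries, as held for 6.56% of all tested genes. For TK2 the log2 fold change was 0.23 ± 0.12 with dTAG47 (edgeR adjusted p = 0.715) and 0.36 ± 0.12 with AGB1 (adjusted p = 0.366). DGUOK, the mitochondrial deoxyguanosine kinase, had −0.01 ± 0.10 with dTAG47 and 0.13 ± 0.10 with AGB1. The nucleotide kinases (12 of 13 tested) had medians of 0.03 with dTAG47 and 0.07 with AGB1. NME1, a nucleoside diphosphate kinase, had 0.05 ± 0.07 with dTAG47 and 0.13 ± 0.07 with AGB1, and NME6 had 0.12 ± 0.09 with dTAG47 and 0.16 ± 0.09 with AGB1.

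Nucleotide breakdown and pool sanitation (14 of 15 tested) had medians of 0.02 with dTAG47 and 0.07 with AGB1. UPP1, the uridine phosphorylase that releases ribose phosphate, had 21.9, 21.2 and 21.6 CPM with dTAG47, 17.2, 18.0 and 19.8 CPM with AGB1 and 16.5, 18.4 and 17.2 CPM in DMSO. All dTAG47 libraries lay above all others, and a separation upwards from AGB1 held for 5.35% of all tested genes. Its log2 fold change was 0.31 ± 0.11 with dTAG47 (unadjusted p = 0.00741, edgeR adjusted p = 0.465) and 0.08 ± 0.11 with AGB1 (adjusted p = 0.908). ITPA, which clears inosine triphosphates, had 0.20 ± 0.09 with dTAG47 and 0.12 ± 0.09 with AGB1. The uracil excision list (5 genes), which removes uracil from DNA, had medians of −0.01 with dTAG47 and 0.01 with AGB1. UNG, the main uracil glycosylase, had 0.06 ± 0.05 with dTAG47 and 0.07 ± 0.05 with AGB1. TDG, which excises thymine and uracil opposite guanine, had −0.08 ± 0.06 with dTAG47 and −0.07 ± 0.06 with AGB1.

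Mitochondrial DNA maintenance (12 genes; medians −0.02 with dTAG47 and 0.02 with AGB1) held the gene nearest to the threshold, SLC25A36, a mitochondrial carrier of pyrimidine nucleotides. It had 119, 131 and 138 CPM with dTAG47, 116, 134 and 119 CPM with AGB1 and 163, 156 and 137 CPM in DMSO. The AGB1 libraries lay below all DMSO libraries, as held for 6.75% of all tested genes, and dTAG47 3 lay just above DMSO 3. Its log2 fold change was −0.23 ± 0.07 with dTAG47 (edgeR adjusted p = 0.352) and −0.31 ± 0.07 with AGB1 (edgeR adjusted p = 0.110). DESeq2 called it with AGB1 (adjusted p = 0.0239), as 1 of the 75 genes it called there, while limma-voom gave an adjusted p of 0.117. With the 6 treated libraries together, DESeq2 gave an adjusted p of 0.0144 and edgeR 0.0689. No other gene of the lists was called by DESeq2 or limma-voom. TFAM, which packages mitochondrial DNA, had −0.13 ± 0.06 with dTAG47 and −0.06 ± 0.06 with AGB1.

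**Figure D5:**
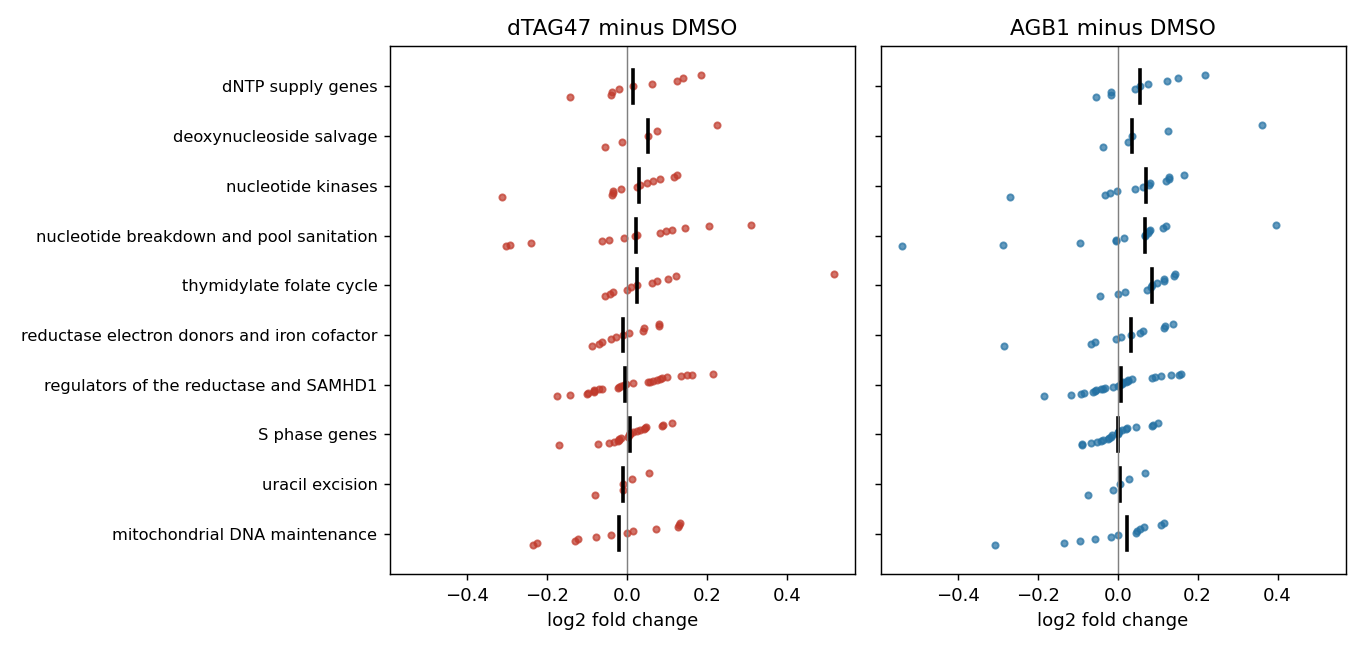
Log2 fold changes of the 9 genes and of the 9 pathway lists, for dTAG47 minus DMSO (left) and AGB1 minus DMSO (right); each point is a tested gene, and the black line is the list's median. The S phase genes lie between −0.17 and 0.11 with dTAG47, and the lowest mitochondrial DNA maintenance gene with AGB1 is SLC25A36 at −0.31.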

How the data were processed

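For each of 9 libraries a deposited file lists raw counts by Ensembl gene, beside gene lengths. HISAT2, DESeq2 and hg38 were used, per the submitters' processing notes. Versions, counter and strandedness were not given in the sources used here. All 58735 genes matched GENCODE 29. Libraries were poly(A)-selected and primed with random hexamers, per the labels' protocols.

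The fit used edgeR 4.0.16 (R 4.3.3): filterByExpr by group (18319 genes), TMM scaling, 1 quasi-likelihood model over all 9 libraries with a coefficient per group, Benjamini-Hochberg adjustment over all tested genes and a threshold of 0.05. SE is the log2 fold change over the square root of F, in absolute value. In simulated counts for dTAG47 against DMSO over 17445 genes, recovery was 40.3% at a 1.25-fold change, 68.7% at 1.5-fold and 77.3% at 2-fold, and 3 calls were false. Only these groups were simulated and fitted, with a spread set by expression level, so the rates are not those of the members. Reads carry no molecular identifiers. Members and lists were chosen with earlier results of these data known. Per list, the text names genes past the threshold or the 2 with the smallest unadjusted p. Within groups, chi-square over degrees of freedom between libraries was 6.06 to 16.1, so none was a copy. Same-numbered libraries did not deviate together (r from −0.156 to 0.0715 in 9 pairs), so replicate numbers were not taken as pairs. Alternatives used DESeq2 1.42.0, limma-voom (limma 3.58.1), other scalings and filters, a replicate block, GC trend removal and leaving out libraries. RefSeq promoter windows gave the sequences.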

Additional observations from a re-analysis of the deposited data

How the results depend on the processing

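Under 24 alternatives to the main analysis, none of the 9 genes passed the threshold in any of the 4 contrasts, and the smallest adjusted p was 0.238. Of 855 recomputed fold changes, 826 moved by no more than 1 standard error and 29 by more, with 44 changes of sign, all in genes with an unadjusted p of 0.05 or more. With the replicate number as a block 0 members were called in each contrast, as with the GC trend removed together with the replicate block. Leaving out each library in turn gave 0 members called throughout, from 0 to 0. The TYMS value depended on whether ENOSF1 was counted with it, and without dTAG47 1 and DMSO 1 together the DTYMK value with dTAG47 was −0.17 (unadjusted p = 0.0184). Fits of only the 2 groups compared gave no value for the contrast of both degraders. Over all genes, the calls for dTAG47, for AGB1 and for both degraders against DMSO numbered 11, 19 and 34 in edgeR, 47, 75 and 122 in DESeq2 and 10, 16 and 36 in limma-voom, and for dTAG47 against AGB1 each tool called 0. Counts of 3 correspond to 0.067 to 0.107 CPM, far below every member. Standard errors of the 9 genes were 0.05 to 0.10 for the single contrasts. They came from the fit over all libraries, in which the estimate of spread also draws on other genes.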
